A study of Rattus norvegicus with 18 samples.

Results

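Spliceosome component mRNAs were followed through RNA immunoprecipitation (RIP, the pull-down of a protein together with the RNA bound to it) from regenerating rat nerve axoplasm. They were taken by gene symbol: all symbols starting with Prpf, Snrp, Snrnp or U2af, or with Sf3a, Sf3b, Lsm or Rbm and a digit, plus Pnn and Zc3h13. The rule found 78 genes with 88 transcript entries, out of 12344 symbols and 13416 entries in the deposited table. 8 of the genes have more than 1 entry, 18 entries together, and these are called entry a, b and c in falling order of their mean FPKM. The rule goes by name and not by function, so it also takes RNA-binding motif (Rbm) and LSm genes whose proteins are not known as spliceosome subunits. Zc3h13, added by its own symbol, encodes a subunit of an mRNA methylation complex and not of the spliceosome.

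All material came from Sprague-Dawley rats whose sciatic nerve had been crushed 7 days earlier. Axoplasm, the cytoplasm of axons, was pressed out of the nerve proximal to the crush in a buffer without detergent and cleared before precipitation. The 6 groups of 3 libraries were the unprecipitated Input and RIPs with antibodies to FLAG, La/SSB, and the ribonucleoproteins hnRNP K, hnRNP F and hnRNP H1. No genetic change is labelled in any group. FLAG is an artificial peptide tag, and the FLAG RIP was taken as the control precipitation. Whether replicates were separate animals is not labelled, and p-values therefore describe the spread among libraries, which may be technical.

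The spliceosome removes introns from precursor mRNA. Its small nuclear ribonucleoproteins (snRNPs) each hold a small RNA, a ring of Sm or LSm proteins and specific proteins: U1 binds the start of the intron, U2 with its SF3A and SF3B proteins binds the branch point, and the U4/U6.U5 tri-snRNP joins before catalysis. U2AF reads the end of the intron, and U11/U12 replace U1 and U2 on a minor class of introns. The proteins act in the nucleus, whereas what was measured here is their mRNA in the axoplasm preparation. That preparation also held RNA of cells other than neurons (marker shares below), so the mRNA need not come from axons. hnRNP H1 and hnRNP F are close relatives that bind G-rich RNA, hnRNP K binds C-rich RNA, and La/SSB binds the U-rich ends of new small RNAs.

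Libraries held 4610750 to 16754262 reads. FLAG RIP 1 and FLAG RIP 3 had the most entries of the whole table at the lowest value, 1601 and 1568, against 776 in FLAG RIP 2. Next came hnRNP F RIP 3 with 1097. The median SD of log2 CPM (reads scaled to library size with TMM factors) over the 88 entries was 0.86 for FLAG. It was 0.8 with hnRNP F, 0.48 with hnRNP H1, 0.49 with La/SSB, 0.44 in Input and 0.36 with hnRNP K. Summed over the 9 of 11 listed neuron markers found in the table, 0.0101 to 0.0176% of reads fell on neuron genes in the FLAG RIP, 0.0165 to 0.0192% in Input, 0.0338 to 0.0404% with hnRNP H1, 0.0288 to 0.0661% with hnRNP F, 0.0134 to 0.0141% with hnRNP K and 0.0169 to 0.0306% with La/SSB. The 6 fibroblast markers took more in every group, 1.55 to 2.53% in the FLAG RIP, 4.72 to 9.43% in Input, 8 to 12% with hnRNP H1, 6.16 to 9.87% with hnRNP F, 12 to 21.3% with hnRNP K and 5.09 to 7.6% with La/SSB. Schwann cell markers (9 of 9 in the table) took 0.137 to 0.53% over all libraries, macrophage markers (4 of 5) 0.0589 to 0.706%, erythrocyte markers (4 of 5) 0.0309 to 2.25% and endothelial markers (3 of 4) 0.0031 to 0.0507%, and no listed marker in the table was at 0 in all libraries of a group. These marker levels differ between the groups compared below, and their part in the results was not tested. The libraries are bulk RNA of axoplasm or of precipitates from it, so the cell type that gave a member's reads cannot be told. For a RIP, the RNA of a cell type present and the part of it precipitated cannot be told apart.

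The 88 entries took a different share of the library with each antibody. They held 1.85, 1.51 and 1.79% of reads in the 3 hnRNP H1 libraries and 1.81, 3.22 and 3.16% in the hnRNP F libraries. In Input they held 0.468, 0.496 and 0.496%, in the FLAG RIP 0.67, 0.749 and 0.683%, and in the La/SSB RIP 0.507, 0.498 and 0.503%. The hnRNP K RIP was lowest, with 0.207, 0.257 and 0.243%. Every hnRNP H1 and F library lay above every other library, and every hnRNP K library lay below every other one.

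Zc3h13 alone, which encodes a subunit of the complex that methylates adenosines in mRNA, held 0.899, 0.613 and 0.727% of all reads with hnRNP H1 and 0.794, 1.59 and 1.71% with hnRNP F, against 0.0629, 0.0695 and 0.0588% in Input and 0.0109, 0.0144 and 0.0101% with hnRNP K. Without Zc3h13 the other 87 entries held 0.955, 0.895 and 1.06% with hnRNP H1 and 1.01, 1.63 and 1.45% with hnRNP F. They held 0.405, 0.426 and 0.437% in Input, 0.572, 0.668 and 0.642% in the FLAG RIP, 0.432, 0.446 and 0.452% with La/SSB and 0.196, 0.242 and 0.233% with hnRNP K. The order of the groups was the same with and without Zc3h13, hnRNP H1 and F above all others and hnRNP K below. A summed share is carried by the entries with the most reads and does not describe the typical entry.

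**Figure D1:**
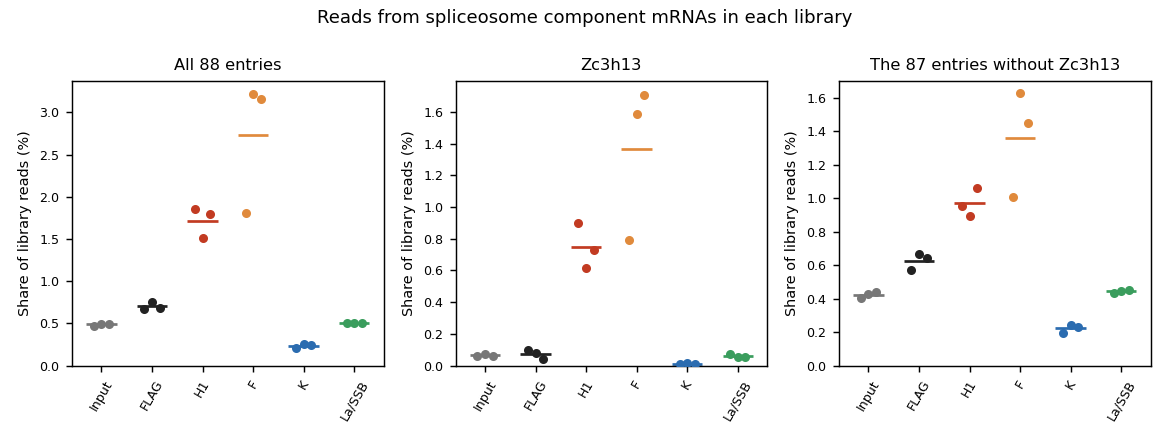
Percentage of each library's reads that fell on all 88 spliceosome component entries, on Zc3h13, and on the 87 entries left without Zc3h13; each point is 1 library, each bar the mean of 3, and the vertical axes start at 0. With hnRNP H1 and F the whole set reached 1.51 to 3.22%, the set without Zc3h13 0.895 to 1.63%, and hnRNP K was lowest in all 3 panels.

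In Input, per transcript length, the median of the 88 entries' mean levels was 14.6 FPKM (reads scaled to transcript length and library size) and the highest were Prpf38b at 141 ± 10.35 (SD, n = 3), Snrpb2 at 108.4 ± 17.33, Snrpe at 104.6 ± 40.32, Pnn at 104.4 ± 14.92 and Zc3h13 at 102.8 ± 8.71 FPKM. The last 4 lie within their SDs of each other. Their order changed with the antibody. Zc3h13 was the highest of the 88 with hnRNP H1 at 1204 ± 232.5 FPKM and with hnRNP F at 2202 ± 804.3 FPKM. It was the 16th with hnRNP K at 19.04 ± 3.699 FPKM. The median of the 88 mean levels was 9.36 FPKM with hnRNP H1 and 12 FPKM with hnRNP F, both below Input on this scale. It was 25 FPKM in the FLAG RIP, 15.6 FPKM with La/SSB and 5.14 FPKM with hnRNP K. FPKM scales to total reads, and the side of Input depended on the scaling. With TMM the members' median log2 fold change over Input was 0.31 (hnRNP H1) and 0.22 (hnRNP F). Scaled to total counts it was -0.24 and -0.32. The larger summed shares with hnRNP H1 and F thus rest on entries with many reads.

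Against the FLAG RIP, some of these mRNAs were higher with hnRNP H1 and F, and about as many were lower. With hnRNP H1, 14 entries were called higher and 14 lower (edgeR, adjusted p under 0.05), where 18.3% and 21.2% of all 13276 entries tested were called. With hnRNP F, 14 were higher and 12 lower, with a background of 16.6% and 17.1%. The members' shares, 15.9% in each direction for hnRNP H1, lie near those backgrounds, and their median log2 fold change of -0.32 lies near the -0.27 of all entries. Scaling to total counts in place of TMM moved the median of all entries to -0.61 and gave 12 members higher and 24 lower with hnRNP H1. For hnRNP F the count of 12 lower fell to 7 without hnRNP F RIP 3.

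hnRNP K differed in direction. 42 of the 88 entries were called lower than in the FLAG RIP and 5 higher, against a background of 19.4% lower and 14.5% higher. The members' median log2 fold change was -1.59 and that of all entries -0.30. The lower calls covered most role classes: 4 of 7 Sm core entries, 5 of 9 U2 snRNP entries, 4 of 5 tri-snRNP entries, 7 of 10 other Prpf entries, 12 of 33 Rbm entries, 2 of 3 U2AF entries, 2 of 3 U11/U12 entries, 3 of 13 LSm entries, 1 of 3 U1 entries, and both Pnn and Zc3h13. 25 of the 42 were called under all alternatives run on single entries, that is, all but summing the entries of a symbol. The higher count of 5 fell to 2 on leaving out hnRNP K RIP 1 or 2, and to 3 on leaving out the third.

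All comparisons with the FLAG RIP share its 3 libraries. hnRNP H1 and F were therefore also compared directly with hnRNP K, without the FLAG RIP. 32 entries were higher with hnRNP H1 and F and 8 lower, against a background of 17.5% and 16.6%. The median log2 difference was 1.12 over the members and 0.17 over all entries. The higher calls held 4 of 7 Sm core, 2 of 3 U1, 2 of 3 U11/U12, 2 of 3 U2AF, 5 of 10 other Prpf, 4 of 13 LSm, 9 of 33 Rbm, 1 of 5 tri-snRNP and 1 of 9 U2 snRNP entries, besides Pnn and Zc3h13. The 8 lower entries were Sf3a1, Sf3a2 and Sf3b4 of the U2 snRNP, U2af1l4, Lsm12, Prpf18 entry a, Rbm33 and Rbm38. All 8 stayed called under all alternatives run on single entries.

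**Figure D2:**
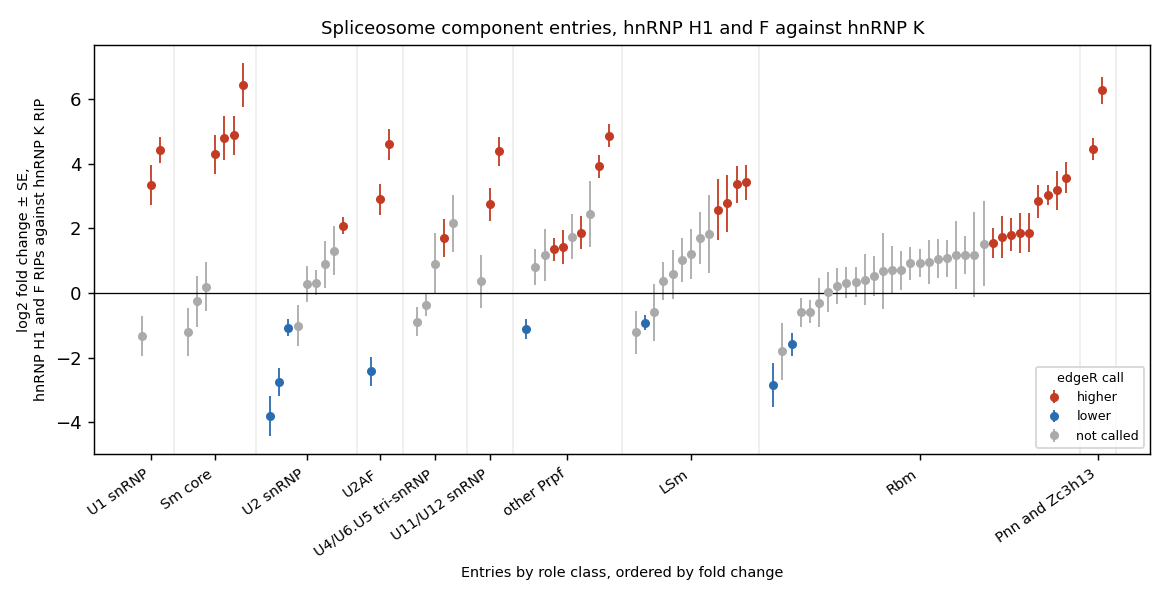
Log2 fold change ± SE of each of the 88 entries in hnRNP H1 and F RIPs (6 libraries) against hnRNP K RIP (3 libraries), grouped by role class and ordered within it; red and blue mark entries called higher and lower by edgeR, grey those not called. The 32 higher calls reach 6.42 (Snrpf) and the 8 lower calls reach -3.80 (Sf3a2), with 3 of the 8 in the U2 snRNP class.

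No call separated hnRNP H1 from hnRNP F. No member, and 0 of all 13276 entries, passed the edgeR threshold in the comparison of hnRNP H1 with hnRNP F, a background of 0%; 14 members had an unadjusted p under 0.05, and DESeq2 called 0 members. Sf3a2 had the lowest unadjusted p of the members, at a log2 difference of -2.46 ± 0.76 (edgeR adjusted p = 0.362). A missed threshold does not show that both antibodies drew the same amounts.

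With La/SSB, 2 entries were higher and 15 lower than in the FLAG RIP, 2.27% and 17% of the members against a background of 9.1% and 9.67%, and none of the 17 stayed called under all alternatives run. The 15 lower calls became 7 without La/SSB RIP 1 and 23 without FLAG RIP 2, and the 2 higher calls became 1 without La/SSB RIP 1, 2 or 3. Against Input, La/SSB gave 0 calls among members, where 0.0226% and 0.015% of all entries were called; 4 members had an unadjusted p under 0.05 and DESeq2 called 0. In the direct comparison hnRNP H1 and F exceeded La/SSB in 20 entries and fell below it in 3, against 10.8% and 8.07%. Scaling to total counts gave 17 and 13 there and moved the median of all entries from -0.12 to -0.85. The 3 lower calls became 6 without hnRNP F RIP 2, 0 without La/SSB RIP 1 and 1 without La/SSB RIP 2.

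12 entries were called higher with hnRNP H1 or F and lower with hnRNP K, each against the FLAG RIP: Zc3h13, Pnn, Prpf19, Prpf38b, Snrnp70 entry a, Snrnp35, Snrpd1, Snrpe, Snrpf, U2af1, Lsm14b and Rbm25l1. These are 13.6% of the members, and 1.66% of all entries tested had the same pattern of calls. Pnn and Zc3h13, both among the 12, entered the rule by name. Members were chosen with earlier results of these data known, so the difference in shares is no independent test. 1 entry, Sf3a2, had the reverse pattern, 1.14% of the members against 1.31% of all entries. The comparisons share the FLAG RIP libraries. All 12 were higher in the direct comparison of hnRNP H1 and F with hnRNP K. That comparison uses the same hnRNP libraries by which the 12 were picked, so it is no separate test of them.

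**Figure D3:**
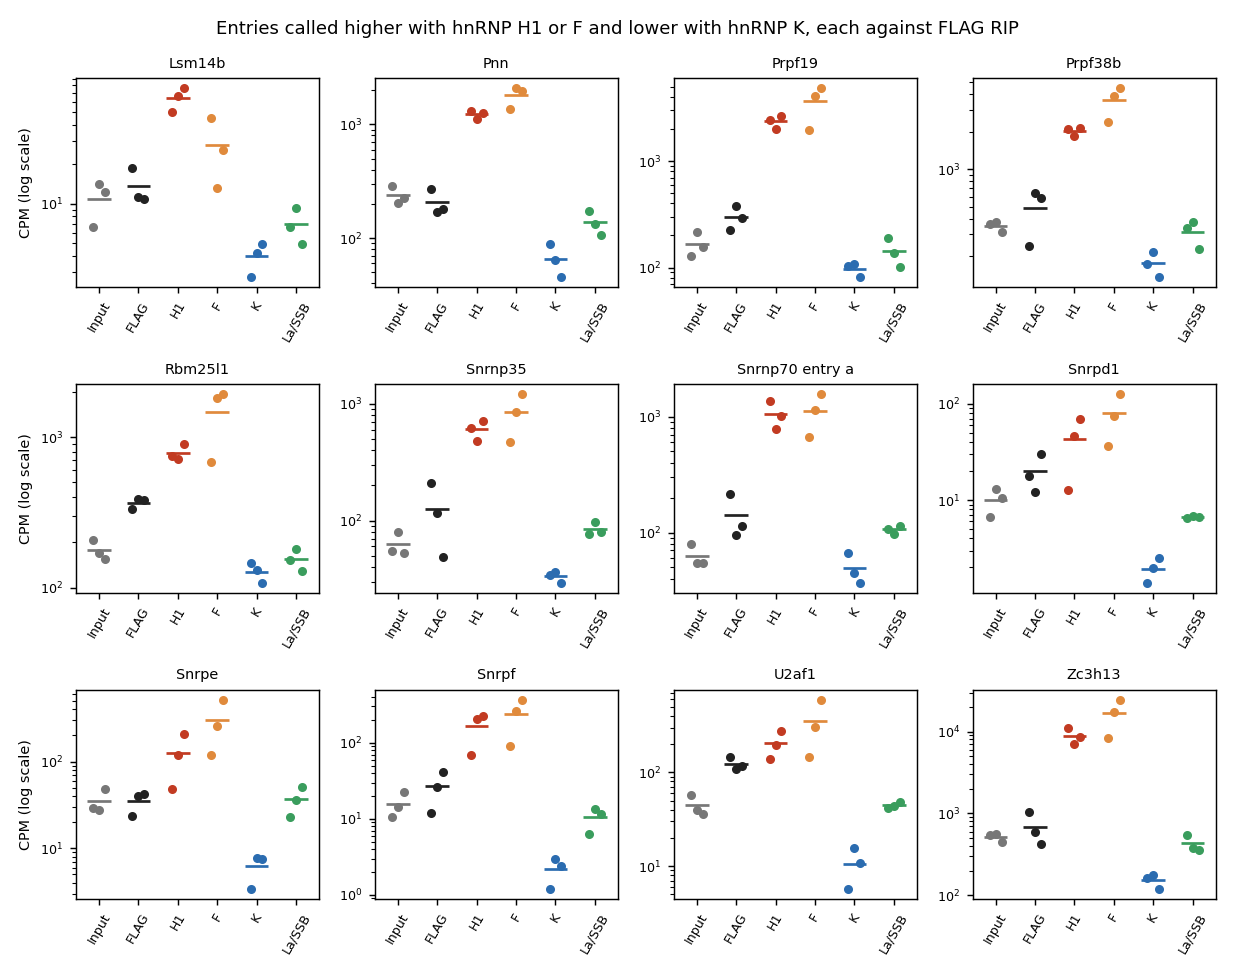
TMM-scaled CPM in each of the 18 libraries for the 12 entries called higher with hnRNP H1 or F and lower with hnRNP K, each against the FLAG RIP; each point is 1 library, each bar a group mean, and the vertical axes are logarithmic. Zc3h13 runs from 119 to 179 CPM with hnRNP K and from 7108 to 24475 CPM with hnRNP H1 and F.

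Zc3h13 (chromosome 15, transcript of 6199 bases) was higher with hnRNP H1 and F and lower with hnRNP K. Its levels were 11044, 7108 and 8477 CPM with hnRNP H1 and 8401, 17373 and 24475 CPM with hnRNP F. They were 1025, 597 and 428 CPM in the FLAG RIP, 543, 562 and 447 CPM in Input, 547, 381 and 360 CPM with La/SSB and 165, 179 and 119 CPM with hnRNP K. The hnRNP H1 and F libraries lay above all others and the hnRNP K libraries below all others. The log2 fold change over the FLAG RIP was 3.68 ± 0.39 (SE) with hnRNP H1 (edgeR adjusted p = 2.5e-06), 4.58 ± 0.41 with hnRNP F (adjusted p = 5.34e-07) and -2.13 ± 0.37 with hnRNP K (adjusted p = 0.000367), and -0.70 ± 0.35 with La/SSB, which was not called (adjusted p = 0.171). The authors' deposited table gives log2 fold changes of 3.69, 4.64, -2.09 and -0.73 for the same comparisons.

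Pnn (chromosome 6) encodes pinin, a protein of cell adhesions and of nuclear splicing complexes. It reached 1318, 1114 and 1259 CPM with hnRNP H1 and 1377, 2093 and 1953 CPM with hnRNP F, against 272, 169 and 179 CPM in the FLAG RIP and 88.2, 64.0 and 45.4 CPM with hnRNP K. The groups did not overlap. Its log2 fold changes over the FLAG RIP were 2.56 ± 0.32, 3.11 ± 0.32 and -1.62 ± 0.31 (edgeR adjusted p = 1.03e-05, 2.4e-06 and 0.000759).

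Prpf19 (chromosome 1), the ubiquitin ligase of a complex needed to activate the spliceosome, reached 2425, 2016 and 2647 CPM with hnRNP H1 and 1948, 4110 and 4876 CPM with hnRNP F. It stood at 227, 380 and 291 CPM in the FLAG RIP and at 104, 108 and 81.1 CPM with hnRNP K. Prpf38b (chromosome 2), a relative of the tri-snRNP protein Prp38, reached 2110, 1837 and 2157 CPM with hnRNP H1 and 2411, 3881 and 4507 CPM with hnRNP F, against 241, 637 and 582 CPM in the FLAG RIP and 171, 216 and 135 CPM with hnRNP K. For both genes the hnRNP H1 and F libraries lay above all FLAG RIP libraries and the hnRNP K libraries below them. The direct log2 difference of hnRNP H1 and F from hnRNP K was 4.86 ± 0.36 for Prpf19 and 3.92 ± 0.35 for Prpf38b (edgeR adjusted p = 1.3e-08 and 1.05e-07). They were the 2 of 10 Prpf entries outside the tri-snRNP that were called against the FLAG RIP with hnRNP H1 or F. That share of 20% higher lies near the 18.3% (hnRNP H1) and 16.6% (hnRNP F) of all entries tested.

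Among U1 genes, Snrnp70 encodes a protein that binds the U1 RNA directly. Its entry a reached 1365, 778 and 1004 CPM with hnRNP H1 and 670, 1129 and 1570 CPM with hnRNP F, against 215, 96.0 and 113 CPM in the FLAG RIP and 66.3, 44.3 and 36.6 CPM with hnRNP K. Its log2 fold changes were 2.87 ± 0.38, 2.96 ± 0.38 and -1.5 ± 0.36, all called. Entry b, another transcript of the gene, was also higher with hnRNP H1 (5.11 ± 0.71) and F (4.78 ± 0.70), but it stood at only 2.86, 6.61 and 0.373 CPM in the FLAG RIP, below the 19.6, 11.2 and 8.505 CPM of Input. It had 144, 111 and 91.6 CPM with hnRNP H1, 69.0, 111 and 95.8 CPM with hnRNP F, 8.17, 8.52 and 12.9 CPM with hnRNP K and 13.6, 15.1 and 7.34 CPM with La/SSB. The hnRNP H1 and F libraries lay above all others. With hnRNP K entry b was not called (1.61 ± 0.63, edgeR adjusted p = 0.0534). Reads shared between the entries of a gene could be split between them by the authors' counting, so the levels of single entries are uncertain. Snrpa, the other U1 gene, was lower with hnRNP F (-2.51 ± 0.77), a call that was lost without FLAG RIP 3 or hnRNP F RIP 3 (edgeR adjusted p = 0.0891 and 0.0633).

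The Sm core proteins form the ring around the snRNP RNAs. Of its 7 entries, Snrpf, Snrpe, Snrpd1 and Snrpd3 were all higher with hnRNP H1 and F than with hnRNP K. Snrpf had 69.4, 204 and 227 CPM with hnRNP H1, 90.4, 258 and 368 CPM with hnRNP F, 11.9, 26.5 and 41.6 CPM in the FLAG RIP and 1.19, 2.94 and 2.36 CPM with hnRNP K. The 3 ranges of hnRNP H1 and F, FLAG and hnRNP K did not overlap, and the direct log2 difference of 6.42 ± 0.68 (edgeR adjusted p = 6.3e-07) was the largest of the 88 entries. Snrpe followed with 48.5, 118 and 208 CPM, 120, 257 and 516 CPM, 23.3, 40.0 and 41.8 CPM, and 3.398, 7.73 and 7.64 CPM in the same order. Its rise with hnRNP H1 (1.82 ± 0.55) was lost without hnRNP H1 RIP 3 (1.23, adjusted p = 0.103).

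Snrpd1 was called higher than the FLAG RIP with hnRNP F (1.95 ± 0.61) and not with hnRNP H1, and the hnRNP F call was lost without FLAG RIP 2 or hnRNP F RIP 3 (edgeR adjusted p = 0.0561 and 0.104). It had 12.8, 46.2 and 69.6 CPM with hnRNP H1, 36.6, 75.2 and 126 CPM with hnRNP F, 17.6, 12.1 and 30.3 CPM in the FLAG RIP and 1.38, 1.96 and 2.52 CPM with hnRNP K. The hnRNP K libraries lay below all others, and the hnRNP H1 and FLAG libraries overlapped. Snrpd3 differed from these 3: the FLAG RIP already held 54.9, 27.8 and 48.2 CPM, against 3.48, 7.36 and 4.33 CPM in Input, and the 65.1, 32.3 and 59.0 CPM of hnRNP H1 and 50.8, 49.2 and 26.2 CPM of hnRNP F overlapped those of the FLAG RIP. La/SSB stood at 5.35, 7.64 and 8.52 CPM. With hnRNP K it had 1.38, 4.11 and 1.34 CPM, a log2 fold change of -4.19 ± 0.62 from the FLAG RIP. Snrpd2 went the other way with hnRNP H1, at 0.640, 4.57 and 0.624 CPM against 14.8, 63.0 and 32.0 CPM in the FLAG RIP (-4.11 ± 1.01). It had 3.81, 34.2 and 2.56 CPM with hnRNP F, 7.53, 14.2 and 14.5 CPM with hnRNP K, 12.4, 26.2 and 27.4 CPM with La/SSB and 18.5, 37.3 and 42.8 CPM in Input, so hnRNP H1 lay below these groups except hnRNP F, which overlapped it. Snrpd2l, whose symbol marks it as a copy of Snrpd2, was also called lower (-3.07 ± 0.98), a call lost without hnRNP H1 RIP 1 (edgeR adjusted p = 0.0562), and reads of the pair may be shared.

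The U2 snRNP had no higher call for hnRNP H1 or F over the FLAG RIP: 0 of 9 entries were higher and 6 lower with hnRNP H1, and 0 higher and 4 lower with hnRNP F. All entries tested gave 18.3% higher and 21.2% lower with hnRNP H1, and 16.6% and 17.1% with hnRNP F. The median log2 fold change of the 9 entries was -2.34 with hnRNP H1 and that of all entries -0.27. Its members split with hnRNP K, where 2 were higher and 5 lower, against 14.5% and 19.4% of all entries. Sf3a2, a subunit of the SF3A complex, had 93.6, 94.4 and 129 CPM with hnRNP K, 17.8, 16.02 and 5.73 CPM in the FLAG RIP and 3.998, 1.44 and 4.06 CPM with hnRNP H1. The 3 groups did not overlap, while hnRNP F spread from 6.46 to 40.8 CPM. The hnRNP K rise was 3.02 ± 0.76 (edgeR adjusted p = 0.0055). The hnRNP H1 fall of -2.01 ± 0.75 (adjusted p = 0.0395) was lost without FLAG RIP 1 or 2 or any hnRNP H1 library, and with a correction for transcript length (the length correction) or with 1 subtracted from each deposited count (counts minus 1; adjusted p = 0.0582 and 0.0606).

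Sf3b4, a subunit of the SF3B complex, had 74.7, 78.3 and 94.1 CPM with hnRNP K and 9.44, 5.49 and 6.40 CPM with hnRNP H1, against 24.1, 42.9 and 42.6 CPM in the FLAG RIP. It was lower with hnRNP H1 (-2.34 ± 0.55), and its hnRNP K value of 1.2 ± 0.52 was not called (edgeR adjusted p = 0.0829). Sf3a1, the large SF3A subunit, was higher with hnRNP K than in Input (1.24 ± 0.32) and, narrowly, than in the FLAG RIP (0.88 ± 0.32, adjusted p = 0.0421). The first call was lost without Input 2, and the second without FLAG RIP 3 or any 1 of the hnRNP K libraries. Sf3b1, the SF3B subunit that clamps the branch point, moved in the opposite direction, with 42.3, 49.9 and 38.5 CPM with hnRNP K against 260, 206 and 303 CPM in the FLAG RIP and 201, 189 and 192 CPM in Input. All hnRNP K libraries lay below every other library, and the log2 fold change was -2.53 ± 0.30 (adjusted p = 1.36e-05).

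Sf3b5, Sf3b6 and Snrpb2 were lower than the FLAG RIP with all 4 antibodies, as was Rbm15b. These 4 are 4.55% of the members, against 3.39% of all entries. Sf3b5 had 61.6, 43.9 and 57.1 CPM in the FLAG RIP and at most 10.2 CPM in any library of the 4 specific RIPs. In Input it had 4.22, 7.01 and 14.1 CPM, so the FLAG RIP itself stood above Input (log2 fold change 2.65 ± 0.76), a call lost without Input 1 or 2. Sf3b6 had the same order, with 149, 55.6 and 117 CPM in the FLAG RIP, 20.4, 13.1 and 26.3 CPM in Input and 2.42 ± 0.81 between them. That call was lost without any 1 of the Input libraries or without FLAG RIP 1 or 3, and with total counts or counts minus 1, and the hnRNP F call of Sf3b6 without hnRNP F RIP 1 or 3. Of these, Sf3b5 was called lower than Input with hnRNP H1, and that call was lost without Input 3 or hnRNP H1 RIP 2.

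For Snrpb2, which encodes the U2 RNA-binding protein B'', the FLAG RIP libraries disagreed: 345, 23.9 and 366 CPM. FLAG RIP 2 lay inside the range of the 4 specific RIPs, 16.9 to 77.3 CPM. The log2 fold changes were -3.01, -2.17, -2.88 and -3.07 (hnRNP H1, F, K and La/SSB), and 0.375, 1.209, 0.504 and 0.308 when FLAG RIP 2 alone stood for the control. That setting was chosen after seeing these values, takes its spread from the other groups and restates the level of FLAG RIP 2. The hnRNP F call was also lost without FLAG RIP 3 or hnRNP F RIP 2. Rbm15b, a relative of the methylation complex protein Rbm15, had 15.4, 36.2 and 135 CPM in the FLAG RIP and 7.70, 2.63 and 14.9 CPM in Input. It had 3.68, 5.75 and 6.09 CPM with hnRNP H1, 16.6, 14.7 and 5.70 CPM with hnRNP F, 4.32, 11.9 and 7.09 CPM with hnRNP K and 8.39, 17.5 and 14.0 CPM with La/SSB, the hnRNP F and La/SSB ranges overlapping the FLAG RIP. Its calls with hnRNP F, hnRNP K and La/SSB were lost without FLAG RIP 3 (edgeR adjusted p = 0.275, 0.0743 and 0.346). Its hnRNP F call was also lost without hnRNP F RIP 3, and its La/SSB call without any 1 of the La/SSB libraries, with total counts or with counts minus 1.

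**Figure D4:**
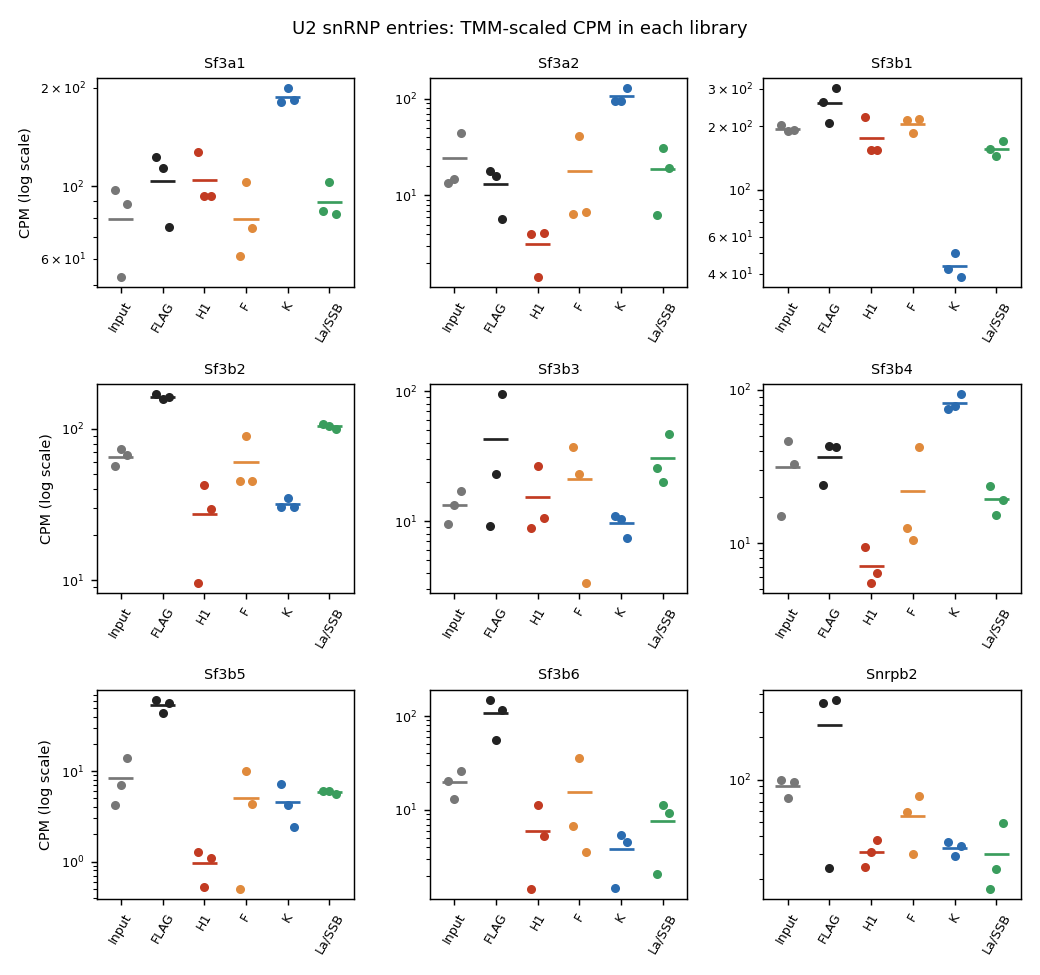
TMM-scaled CPM in each of the 18 libraries for the 9 U2 snRNP entries; each point is 1 library, each bar a group mean, and the vertical axes are logarithmic. Sf3a1, Sf3a2 and Sf3b4 are highest with hnRNP K, Sf3b1 is lowest there, and Snrpb2 shows FLAG RIP 2 at 23.9 CPM below the 345 and 366 CPM of the other FLAG libraries.

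U2AF is a dimer of a small subunit, U2af1, and a large one, U2af2. U2af1 had 5.69, 15.5 and 10.8 CPM with hnRNP K against 145, 109 and 117 CPM in the FLAG RIP (-3.51 ± 0.47 on the log2 scale), and 139, 198 and 277 CPM with hnRNP H1 and 147, 307 and 595 CPM with hnRNP F. It was called higher than the FLAG RIP with hnRNP F only (1.46 ± 0.44), and that call was lost without hnRNP F RIP 3 (0.878, edgeR adjusted p = 0.138) and with total counts (1.071, adjusted p = 0.0578). For U2af2 the FLAG RIP exceeded Input (3.14 ± 0.51). It was lower with hnRNP K than in the FLAG RIP (-2.84 ± 0.51), and had no call against the FLAG RIP with hnRNP H1 (0.22 ± 0.48) or hnRNP F (-0.12 ± 0.48). U2af1l4, a relative of the small subunit, was lower with hnRNP H1 (-2.28 ± 0.57) and F (-2.26 ± 0.57) and lower there than with hnRNP K (-2.42 ± 0.46).

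Of the 5 tri-snRNP entries none was higher against the FLAG RIP with any of the 4 antibodies. Of all entries tested, 18.3% were called higher with hnRNP H1, 16.6% with hnRNP F, 14.5% with hnRNP K and 9.1% with La/SSB. With only 5 entries, none called higher lies near those backgrounds. Snrnp200, the helicase that unwinds U4 from U6, had 59.97, 41.8 and 45.1 CPM with hnRNP H1, 61.4, 121 and 36.6 CPM with hnRNP F and 82.6, 69.9 and 74.4 CPM with hnRNP K. It had 277 CPM, 219 CPM and 229 CPM in the FLAG RIP, 160, 119 and 117 CPM with La/SSB and 141, 138 and 120 CPM in Input. The FLAG RIP libraries lay above all others. It was lower with hnRNP H1 (-2.32 ± 0.40), F (-1.73 ± 0.39) and K (-1.65 ± 0.39). Prpf4, a U4/U6 protein, had 52.1, 35.9 and 55.6 CPM in the FLAG RIP and 20.5, 29.5 and 19.9 CPM in Input. It had 3.52, 8.36 and 5.46 CPM with hnRNP H1, 5.96, 10.6 and 6.29 CPM with hnRNP F, 10.2, 12.8 and 13.7 CPM with hnRNP K and 16.9, 20.7 and 19.7 CPM with La/SSB, all below the FLAG RIP. It was lower with the same 3 antibodies (-3.02 ± 0.58, -2.63 ± 0.57 and -1.94 ± 0.55), and its hnRNP K call was lost without hnRNP K RIP 1 (edgeR adjusted p = 0.0538). For the minor spliceosome, Snrnp35 of the U11/U12 snRNP had 620, 485 and 713 CPM with hnRNP H1 and 469, 856 and 1217 CPM with hnRNP F, against 211, 117 and 48.9 CPM in the FLAG RIP and 34.5, 36.4 and 29.1 CPM with hnRNP K. The 4 groups kept that order without overlap except between hnRNP H1 and F.

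LSm proteins form the ring of U6 and a related ring in mRNA decay, and Lsm12 and Lsm14b lie outside both rings. Lsm12 had 533, 501 and 447 CPM with hnRNP K, above the 230, 160 and 270 CPM of the FLAG RIP and the 152, 185 and 144 CPM of Input. It had 334, 345 and 379 CPM with hnRNP H1, 201, 155 and 257 CPM with hnRNP F and 160, 175 and 229 CPM with La/SSB. The hnRNP K libraries lay above all others, and the hnRNP H1 libraries next. It was the 1 higher call of hnRNP K over the FLAG RIP that held under all alternatives run on single entries (1.19 ± 0.29, edgeR adjusted p = 0.00415). Lsm14b, a protein of translationally silent mRNPs, had 50.2, 66.5 and 76.3 CPM with hnRNP H1 and 18.6, 11.2 and 10.8 CPM in the FLAG RIP (2.23 ± 0.57). Its fall with hnRNP K (-1.72 ± 0.57, adjusted p = 0.0253) was lost without FLAG RIP 1 or without any 1 of the hnRNP K libraries, and with the length correction. Lsm3, a ring protein, was lower with hnRNP H1 (-3.87 ± 0.88), at 1.28, 4.96 and 0.937 CPM against 34.4, 62.0 and 15.6 CPM. It had 5.46, 11.9 and 15.7 CPM with hnRNP F, 8.17, 14.8 and 13.1 CPM with hnRNP K, 2.15, 12.6 and 16.6 CPM with La/SSB and 22.7, 14.9 and 25.7 CPM in Input. The hnRNP H1 libraries lay below those of the FLAG RIP and Input.

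The 33 Rbm entries gave 3 higher and 2 lower calls with hnRNP H1 over the FLAG RIP, 3 and 4 with hnRNP F, 2 and 12 with hnRNP K, and 1 and 6 with La/SSB. As shares these were 9.09% and 6.06%, 9.09% and 12.1%, 6.06% and 36.4%, and 3.03% and 18.2%. All entries tested gave 18.3% and 21.2%, 16.6% and 17.1%, 14.5% and 19.4%, and 9.1% and 9.67% in the same order. Rbm25l1 had 753, 711 and 903 CPM with hnRNP H1, 680, 1804 and 1934 CPM with hnRNP F, 331, 388 and 380 CPM in the FLAG RIP and 146, 131 and 108 CPM with hnRNP K. Those ranges did not overlap except between hnRNP H1 and F. It may share reads with Rbm25, a U1-associated splicing regulator, which was itself higher with hnRNP H1 and F than with hnRNP K (1.79 ± 0.51), a call lost without hnRNP K RIP 2.

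Rbm41 was the 1 entry higher than the FLAG RIP with all 4 antibodies, 1.14% of the members against 4.14% of all entries, and it was also lower in the FLAG RIP than in Input (-3.36 ± 0.69). It had 0.205, 8.68 and 5.66 CPM in the FLAG RIP and 70.6, 32.4 and 47.2 CPM in Input. It had 65.9, 56.3 and 71.2 CPM with hnRNP H1, 77.8, 69.7 and 94.4 CPM with hnRNP F, 20.1, 21.0 and 16.9 CPM with hnRNP K and 49.0, 22.05 and 34.1 CPM with La/SSB. The FLAG RIP libraries lay below all others, and none of the 4 specific RIPs was called against Input. The hnRNP K call was lost without any 1 of the hnRNP K libraries, and with total counts or the length correction. Rbm8a, the exon junction protein Y14, was lower with hnRNP K (-4.30 ± 0.67), at 2.66, 10.5 and 7.72 CPM against 291, 57.3 and 69.7 CPM. It had 21.8, 46.8 and 58.4 CPM with hnRNP H1, 91.6, 72.2 and 133 CPM with hnRNP F, 21.7, 26.1 and 34.5 CPM with La/SSB and 40.9, 28.1 and 28.4 CPM in Input, all above hnRNP K. Its fall with hnRNP H1 was lost without FLAG RIP 1 and without hnRNP H1 RIP 1 or 2, and with the length correction or counts minus 1.

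Rbm47, a partner of an RNA-editing enzyme, had 25.3, 40.8 and 128 CPM in the FLAG RIP against 9.90, 5.08 and 7.70 CPM in Input (3.06 ± 0.66). It had 11.9, 11.6 and 7.47 CPM with hnRNP F, 6.98, 12.04 and 9.37 CPM with hnRNP K and 17.9, 3.21 and 8.77 CPM with La/SSB, all below the FLAG RIP, while the 41.6, 42.8 and 35.3 CPM of hnRNP H1 overlapped it. It was lower with hnRNP F (-2.63 ± 0.67), hnRNP K (-2.74 ± 0.67) and La/SSB (-2.71 ± 0.67). The hnRNP F and La/SSB calls were lost without FLAG RIP 3 (edgeR adjusted p = 0.0507 and 0.0602).

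Rbm33 had 227, 242 and 201 CPM with hnRNP K, above the 52.8, 86.7 and 144 CPM of the FLAG RIP and the 68.0, 87.5 and 37.9 CPM of Input. It had 110, 72.2 and 59.3 CPM with hnRNP H1, 69.5, 109 and 36.2 CPM with hnRNP F and 116, 117 and 101 CPM with La/SSB. The hnRNP K libraries lay above all others. Its log2 fold change over the FLAG RIP was 1.26 ± 0.42, and that call was lost without FLAG RIP 1 or 2 or hnRNP K RIP 1 or 2, and with total counts or the length correction, while against Input it was 1.79 ± 0.42, lost without Input 3 and with total counts. Rbm5 entry b, called lower with hnRNP K at -4.49 ± 1.59, rested on FLAG RIP 1 with 90.1 CPM beside 1.86 and 0.125 CPM, and turned to 0.392 without it. It had 0.275, 1.96 and 1.58 CPM with hnRNP K, 0.320, 4.96 and 9.37 CPM with hnRNP H1, 1.93, 2.60 and 2.95 CPM with La/SSB, 4.22, 6.49 and 1.93 CPM in Input, 4.97 and 3.87 CPM in hnRNP F RIP 1 and 2 and 0 in hnRNP F RIP 3.

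Input gave a second reference. The FLAG RIP itself held 16 entries above Input and 2 below, against a background of 8.71% and 7.45%, with a median of 0.59 over the members and 0.30 over all entries. That count fell to 8 without Input 1, 3 without Input 2 and 5 without Input 3, and the lower count to 1 without Input 1 or Input 2. With hnRNP H1, 19 entries were above Input and 10 below (background 13.4% and 10.7%), and with hnRNP F 16 and 2 (11.7% and 7.22%). With hnRNP K, 3 were above and 14 below (6.58% and 6.47%). Scaling to total counts gave 15 and 15 with hnRNP H1 and 1 and 35 with hnRNP K, and moved the median of all entries from -0.02 to -0.56 and from -0.10 to -0.77. The 10 lower calls of hnRNP H1 became 5 without Input 3. The 2 of hnRNP F became 0 without Input 1, Input 3 or hnRNP F RIP 3, 1 without Input 2 and 5 without hnRNP F RIP 2. The 14 of hnRNP K became 7 when hnRNP K RIP 1 was left out, and 9 when hnRNP K RIP 2 or Input 2 was.

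Entries called in the same direction against both the FLAG RIP and Input numbered 12 higher and 10 lower for hnRNP H1, 12 and 2 for hnRNP F, then 3 and 14 for hnRNP K. La/SSB had 0 and 0. Of all 13256 entries in both fits, 9.39% and 8.3%, 8.1% and 4.78%, 4.19% and 5.28%, and 0.0226% and 0.00754% were called so, and of the members 13.6% and 11.4%, 13.6% and 2.27%, 3.41% and 15.9%, and 0%. The 3 higher ones of hnRNP K were Lsm12, Rbm33 and Sf3a1. The 14 lower ones included Sf3b1, Snrpe, Snrpf, Snrpd1, U2af1, Pnn, Zc3h13 and Prpf38b. Of these, the Input call of Prpf38b (-1.0 ± 0.32, edgeR adjusted p = 0.0411) was lost on leaving out any 1 Input or hnRNP K library and with RLE size factors or DESeq2, and that of Snrpd1 without Input 2 or hnRNP K RIP 1 or 2. The 2 comparisons share the libraries of the RIP itself.

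A further list of splicing genes outside the rule, 89 entries of helicases, snRNP assembly factors, exon junction and methylation complex genes, was tested in the same fits. 16 were higher and 29 lower than the FLAG RIP with hnRNP H1. The counts were 14 and 20 with hnRNP F, 8 and 42 with hnRNP K, then 3 and 14 with La/SSB. As shares these were 18% and 32.6%, 15.7% and 22.5%, 8.99% and 47.2%, and 3.37% and 15.7%, against 18.3% and 21.2%, 16.6% and 17.1%, 14.5% and 19.4%, and 9.1% and 9.67% of all entries. Ddx39b entry a, an RNA helicase of splicing and export, rose with hnRNP H1 (5.76 ± 0.71), hnRNP F (5.49 ± 0.71) and La/SSB (2.55 ± 0.62). Its relative Ddx39a was higher with all 4 antibodies (6.08 ± 1.24, 5.1 ± 1.19, 4.01 ± 1.15 and 4.36 ± 1.16). These 4 folds share the FLAG RIP libraries, and 4.14% of all entries were called higher with all 4. Gemin5, which selects snRNAs for snRNP assembly, was lower with hnRNP H1 (-5.03 ± 0.71), hnRNP F (-4.30 ± 0.68) and La/SSB (-2.96 ± 0.64), and of the 15 SMN and snRNP assembly entries 0 were higher and 9 lower with hnRNP H1.

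Transcript length differed between the members, with a median of 1800 bases against 2223 over all entries. Lower calls with hnRNP K over the FLAG RIP fell on 42.1% of the 19 members under 1000 bases, 51.4% of the 35 of 1000 to under 2500 bases and 47.1% of the 34 of 2500 bases or more. Over all entries the same shares were 30.4, 21.4 and 13.9%. The members' shares were above those of all entries in each length class. Pearson's r of log2 length with the fold change over the 88 entries was 0.24 for hnRNP K and 0.17 for hnRNP H1, given as a description, since entries of 1 library share its depth and antibody.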

How the data were processed

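Per the file headers, the deposited table holds read counts per transcript entry, FPKM, and the authors' log2 fold changes and FDR values (p-values adjusted for multiple tests) from edgeR. CASAVA 1.8.2 and edgeR are named in the submitters' processing notes. Aligner, counter and build: not given in the sources used here, so no coordinates are printed. The lowest value is 1 in 17 of 18 libraries, read here as 1 added to each count; no source states this, and La/SSB RIP 1, where every value minus 1 is at least 10, departs from it. 18 columns of normalised values per sample were not used.

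Deposited counts were tested with edgeR 4.0.16 (R 4.3.3; TMM, filterByExpr minimum count 10 and total 15, two-sided quasi-likelihood F-test, Benjamini-Hochberg adjusted p under 0.05) over all entries: 13276 in 15 RIP libraries (10 residual degrees of freedom) and 13300 in 18 for Input comparisons (12). All 88 members were tested. CPM used counts minus 1. Library depth, 4610750 to 16754262 reads, limits entries of few reads. The script was tested on simulated data. DESeq2 1.42.0 was an alternative, as were other scalings, filters, a length correction and leaving out each library.

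Members and lists were chosen with earlier results of these data known. Values in every library are given, in the text or the plots, for Pnn, Zc3h13, the entry of each role class with the highest FPKM, the 4 highest and 4 lowest called folds over the FLAG RIP per antibody, entries called alike with all 4 antibodies or oppositely with hnRNP H1 or F and hnRNP K, and some others chosen after their values were seen. Of the other splicing genes, the 3 highest and 3 lowest could be named.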

Additional observations from a re-analysis of the deposited data

How the results depend on the processing

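Of 172 calls of the entries named by rule, RLE size factors kept 170, DESeq2 171, no filter 172, the length correction 166, counts minus 1 161, total counts 157 and fitting only the libraries compared 137; none of these reversed a sign. Counts of members that moved by over 1.5 times follow; the cause was not tested. Under total counts, lower calls became 24 (hnRNP H1 against FLAG), 8 (La/SSB against FLAG), 13 (hnRNP H1 and F against La/SSB), 1 (FLAG against Input), 4 (hnRNP F against Input) and 35 (hnRNP K against Input), and higher calls 2 (hnRNP K against FLAG), 1 (La/SSB against FLAG), 10 (FLAG against Input) and 1 (hnRNP K against Input). Total counts moved the median of all entries from -0.27 to -0.61 (hnRNP H1), -0.21 to -0.54 (F), -0.30 to -0.80 (K) and -0.32 to 0.07 (La/SSB) against FLAG. DESeq2 gave 23 lower for hnRNP H1 and 25 for La/SSB against FLAG, and 5 higher for hnRNP K against Input. Only the libraries compared gave 2 lower for hnRNP F, 2 higher for hnRNP K, 0 higher and 2 lower for La/SSB against FLAG, 5 lower for hnRNP H1 and F against La/SSB, and against Input 0 and 0 for FLAG, 1 lower for hnRNP F and 7 higher and 32 lower for hnRNP K. When FLAG RIP 2 alone stood for the control (chosen after seeing the data, with the spread of the other groups), lower calls were 3 (hnRNP F), 25 (hnRNP K) and 1 (La/SSB), higher calls 2 (hnRNP K), 1 (La/SSB) and 2 (FLAG against Input); 51 of 91 named calls held and 4, all Snrpb2, reversed (0.375, 1.209, 0.504 and 0.308 for hnRNP H1, F, K and La/SSB). RLE, counts minus 1 and summed entries of a symbol each left 1 higher for La/SSB against FLAG; for FLAG against Input, counts minus 1 gave 7 higher and summed entries 1 lower.

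Leaving out 1 library at a time, higher and lower calls against FLAG ranged from 12 to 17 and 12 to 21 (hnRNP H1), 12 to 16 and 7 to 14 (F), 2 to 6 and 31 to 43 (K), and 1 to 3 and 7 to 23 (La/SSB). They ranged from 24 to 31 and 8 to 12 for hnRNP H1 and F against hnRNP K, and 17 to 20 and 0 to 6 against La/SSB. Against Input they ranged from 3 to 18 and 1 to 3 (FLAG), 16 to 18 and 5 to 9 (hnRNP H1), 15 to 18 and 0 to 5 (F), and 2 to 3 and 7 to 10 (K). The log2 fold change of Rbm5 entry b, hnRNP K RIP against FLAG RIP, ranged from -5.075 to 0.392, reversing without FLAG RIP 1.

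Replicate numbers are shared between groups, but the labels do not say what a number marks, and in 0 of 14 group pairs did all 3 same-numbered pairs correlate above 0.1 (0.005 to 0.171). Even so, these correlations were all positive, and 86 of 90 comparisons of a library with another group were highest for its own number among the 3 numbers. Fibroblast marker shares fell from number 1 to 3 in Input (9.43, 6.3 and 4.72%). They fell likewise with every antibody but hnRNP F (9.87, 6.16 and 6.41%). Same-numbered libraries thus shared some spread, whose source is not labelled. The main fits do not model any spread that same-numbered libraries share. With a replicate block, lower calls for hnRNP H1 and F against La/SSB became 5, those for hnRNP K against FLAG 37, and higher calls for hnRNP H1 and F against hnRNP K 31; 168 of 172 named calls held, and those of Sf3a2 (hnRNP H1), Rbm15b (hnRNP F and La/SSB) and Rbm5 entry b (hnRNP K) against FLAG were lost (edgeR adjusted p = 0.0575, 0.0591, 0.0572 and 0.166).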
